A study of Mus musculus with 5 samples.

Results

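Il6ra, Il6st, Il21r, Jak1, Jak2, Stat3, Socs1 and Socs3 are 8 genes of the interleukin-6 receptor, its STAT3 signal and its feedback inhibitors. They were taken by symbol from the 31053 genes of the count tables, and all 8 were present. The counts came from CD4 T cells that were flow sorted from mouse kidneys after unilateral ischemia-reperfusion injury, in which the blood supply of a kidney is stopped and then restored. The knockout group (3 libraries, Il1rl1fl/fl Foxp3YFP-Cre) carries loxP sites in Il1rl1 and a Cre recombinase made under Foxp3, the transcription factor of regulatory T cells (Tregs). The control group (2 libraries, Il1rl1fl/fl) carries the loxP sites alone, and both groups were 10 weeks old. Il1rl1 encodes ST2, the receptor for interleukin-33. Because the Foxp3YFP-Cre allele was in the knockout group alone, the allele and the loss of Il1rl1 cannot be told apart. Whether each library came from its own animal is not labelled, so the p-values measure the spread between these libraries, which may be technical.

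Interleukin-6 binds its receptor IL-6Rα, the product of Il6ra, and the pair then engages gp130, the signalling chain encoded by Il6st that the whole interleukin-6 family shares. Janus kinases bound to such chains phosphorylate STAT3, which enters the nucleus and switches on target genes, among them Socs3, whose protein binds gp130 and dampens the signal. In CD4 T cells this pathway is known for favouring T helper 17 (Th17) over Treg differentiation, and T cells are known to lose surface IL-6Rα after activation.

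Cells were counted in 3 gates set by UMIs (unique molecular identifiers, 1 per captured RNA molecule). The Foxp3+ gate (at least 1 Foxp3 UMI) held 2995 of 38417 retained cells. The Foxp3- Cd4+ gate (no Foxp3 UMI, at least 1 Cd4 UMI) held 26978 cells. The third gate asked for at least 5 UMIs of C1qa, C1qb and C1qc together, complement genes of tissue macrophages, and held 3024 cells. The macrophage label alone did not describe this gate, because most of its cells also held T cell transcripts. Of its cells 74.9% were also in the Foxp3- Cd4+ gate and 13.0% had a Foxp3 UMI. Cd3e, a T cell receptor chain, stood at 282 to 391 CPM in it. Only 195 of the gate's cells, 6.45%, had no UMI of Cd3d, Cd3e or Cd3g, so it is called the C1q-high gate here. These values do not show that macrophage RNA was absent. Levels are given in CPM, the UMIs of a gene per 1000000 UMIs summed over the cells of a gate in 1 library. In such sums fewer cells of a type and less RNA per cell cannot be told apart.

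The 5 libraries had 31104939 to 152275841 UMIs in all, and control 1 stood apart with a median of 13534 UMIs per retained cell against 3786 to 7546 in the others. Library pairs shared 2 to 39 cell barcodes. C1q-high cells supplied 27.7%, 35.0% and 38.2% of the UMIs of the Foxp3+ gate in knockout libraries and 13.1% and 23.1% in control libraries, and values without them are given where a member's result moved. The 5 Treg markers (Foxp3, Ikzf2, Il2ra, Ctla4 and Tnfrsf18) summed to 2063 to 2569 CPM in knockout and 2306 to 2922 CPM in control libraries of the Foxp3+ gate, with none at 0. Foxp3 itself set the gate, so its part of these sums follows from how the gate was set. The targeted gene Il1rl1 had 128, 53.9 and 51.6 CPM there in knockout libraries, against 74.2 and 54.8 CPM in control libraries. The labels do not give the deleted part of Il1rl1, and a 3′ tag outside it checks nothing, so these values do not test the knockout.

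The promoters of 4 members are shown because their transcripts moved most between the gates described below: both receptor chains, and the pair of inhibitors, whose levels went opposite ways between Ccr7+ Lef1+ or Th1-marker cells and the cells they were set against. Each is the RefSeq window (build GRCm38.p6) from 250 bases before to 50 bases after the gene's start, written 5′ to 3′ on the gene's own strand. All 8 members had such a window. Capitals mark matches to 2 motifs that were searched on both strands.
Il6ra (chr3:89913147-89913446, minus strand): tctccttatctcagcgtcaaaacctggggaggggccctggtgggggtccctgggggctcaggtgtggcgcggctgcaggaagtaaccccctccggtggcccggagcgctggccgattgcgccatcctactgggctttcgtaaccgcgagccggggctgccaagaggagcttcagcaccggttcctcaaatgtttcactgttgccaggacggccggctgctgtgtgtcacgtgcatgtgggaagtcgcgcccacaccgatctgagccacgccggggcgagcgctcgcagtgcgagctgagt
Il6st (chr13:112463820-112464119, plus strand): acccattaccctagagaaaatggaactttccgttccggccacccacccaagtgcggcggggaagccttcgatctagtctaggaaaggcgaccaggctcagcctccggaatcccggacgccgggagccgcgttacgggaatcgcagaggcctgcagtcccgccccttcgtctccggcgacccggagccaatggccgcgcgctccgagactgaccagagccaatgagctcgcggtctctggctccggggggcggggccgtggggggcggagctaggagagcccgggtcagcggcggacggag
Socs1 (chr16:10785487-10785786, minus strand): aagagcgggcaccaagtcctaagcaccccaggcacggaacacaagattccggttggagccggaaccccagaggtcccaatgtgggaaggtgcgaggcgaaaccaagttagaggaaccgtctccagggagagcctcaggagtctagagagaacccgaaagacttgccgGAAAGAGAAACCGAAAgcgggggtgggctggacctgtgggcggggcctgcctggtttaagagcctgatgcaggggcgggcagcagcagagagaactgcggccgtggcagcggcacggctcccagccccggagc
Socs3 (chr11:117969317-117969616, minus strand): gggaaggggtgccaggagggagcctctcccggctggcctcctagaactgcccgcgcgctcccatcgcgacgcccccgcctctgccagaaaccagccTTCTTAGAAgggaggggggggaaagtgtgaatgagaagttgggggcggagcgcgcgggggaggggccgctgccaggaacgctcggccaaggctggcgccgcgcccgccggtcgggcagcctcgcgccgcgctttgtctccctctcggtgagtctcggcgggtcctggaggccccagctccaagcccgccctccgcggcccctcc
The STAT motif TTCNNNGAA, the core that STAT dimers are known to bind, was found in the Socs3 window alone among the 8 members, as TTCTTAGAA 154 bases before the start. It stood in 8.30% of all 32851 RefSeq promoter windows. A pair of GAAA runs with any 2 bases between them, searched after the sequences had been seen, was found in Socs1 alone, as GAAAGAGAAA and GAAACCGAAA 83 and 77 bases before the start. Those matches overlap, and 3.44% of all windows held such a pair. A match is a run of letters, not a measured binding site. The RefSeq start of Socs3 lies inside the gene as annotated by GENCODE M21.

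To see where the members were expressed, the cells were divided into 6 gates that share no cell: C1q-high, B-marker (at least 3 UMIs of Cd79a, Cd79b and Ms4a1), Foxp3+, Ccr7+ Lef1+ (UMIs of both genes), Th1-marker (a Cxcr3 UMI) and other Foxp3- Cd4+ cells. Ccr7 encodes a homing receptor and Lef1 a transcription factor, both known from naive and central memory T cells, and this gate was chosen after the data were seen. Means below are over all 5 libraries with their SD.

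Il6ra, which makes the ligand-binding chain, had its highest level in the Ccr7+ Lef1+ gate, with 187, 180 and 165 CPM in knockout and 212 and 196 CPM in control libraries, a mean of 188 ± 17.7 CPM (SD, n = 5). The C1q-high gate followed with 105.6 ± 17.4 CPM, and its libraries did not overlap those of the Ccr7+ Lef1+ gate. The levels of the other 4 gates ran from 98.0 CPM in Foxp3+ cells through 91.0 CPM in other Foxp3- Cd4+ and 60.7 CPM in B-marker cells to 49.6 CPM in Th1-marker cells, and each overlapped its neighbour. Il6st, the gp130 chain, also had its highest mean in the Ccr7+ Lef1+ gate, at 112.3 ± 13.3 CPM, and the Foxp3+ gate followed at 84.4 ± 10.7 CPM (SD, n = 5), overlapping it. Its lowest mean, 45.3 ± 7.10 CPM, was in the Th1-marker gate. Il21r, the interleukin-21 receptor chain that also signals through STAT3, ranged from 114.9 ± 10.5 CPM in the Foxp3+ gate to 90.6 ± 5.92 CPM in the C1q-high gate, with every gate overlapping the next.

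Jak1, the kinase that gp130 is known to depend on most, ranged from 732 ± 50.6 CPM in Ccr7+ Lef1+ cells, level with the 732 ± 28.6 CPM of other Foxp3- Cd4+ cells, to 579.7 ± 24.3 CPM in C1q-high cells, with each gate overlapping the next. Jak2 ran the other way in Ccr7+ Lef1+ cells, where it had its lowest mean, 212 ± 22.0 CPM, and its highest was in other Foxp3- Cd4+ cells at 305 ± 45.2 CPM, again with every gate overlapping the next. Stat3 stood at 258 ± 15.1 CPM in the Foxp3+ gate, 244 ± 20.4 CPM in other Foxp3- Cd4+ and 238.5 ± 4.13 CPM in Ccr7+ Lef1+ cells, and from 188 to 213 CPM in the other 3. The step between Ccr7+ Lef1+ cells and Th1-marker cells (212.6 ± 4.86 CPM) was the only one of Stat3 without overlap.

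The SOCS genes were ordered in different ways. Socs1, whose protein blocks Janus kinases, had its highest mean in the Foxp3+ gate at 95.9 ± 26.2 CPM and its lowest means in the Ccr7+ Lef1+ gate at 59.7 ± 21.8 CPM and the B-marker gate at 55.8 ± 16.9 CPM. Socs3 had its highest mean in the Ccr7+ Lef1+ gate at 59.5 ± 20.8 CPM and its lowest in Th1-marker cells at 20.9 ± 4.34 CPM (SD, n = 5 each). Neighbouring gates overlapped throughout for both. Knockout 2 had the lowest Socs3 of the 5 libraries in 5 of the 6 gates, all but B-marker, and knockout 3 had the highest in all 6.

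**Figure D1:**
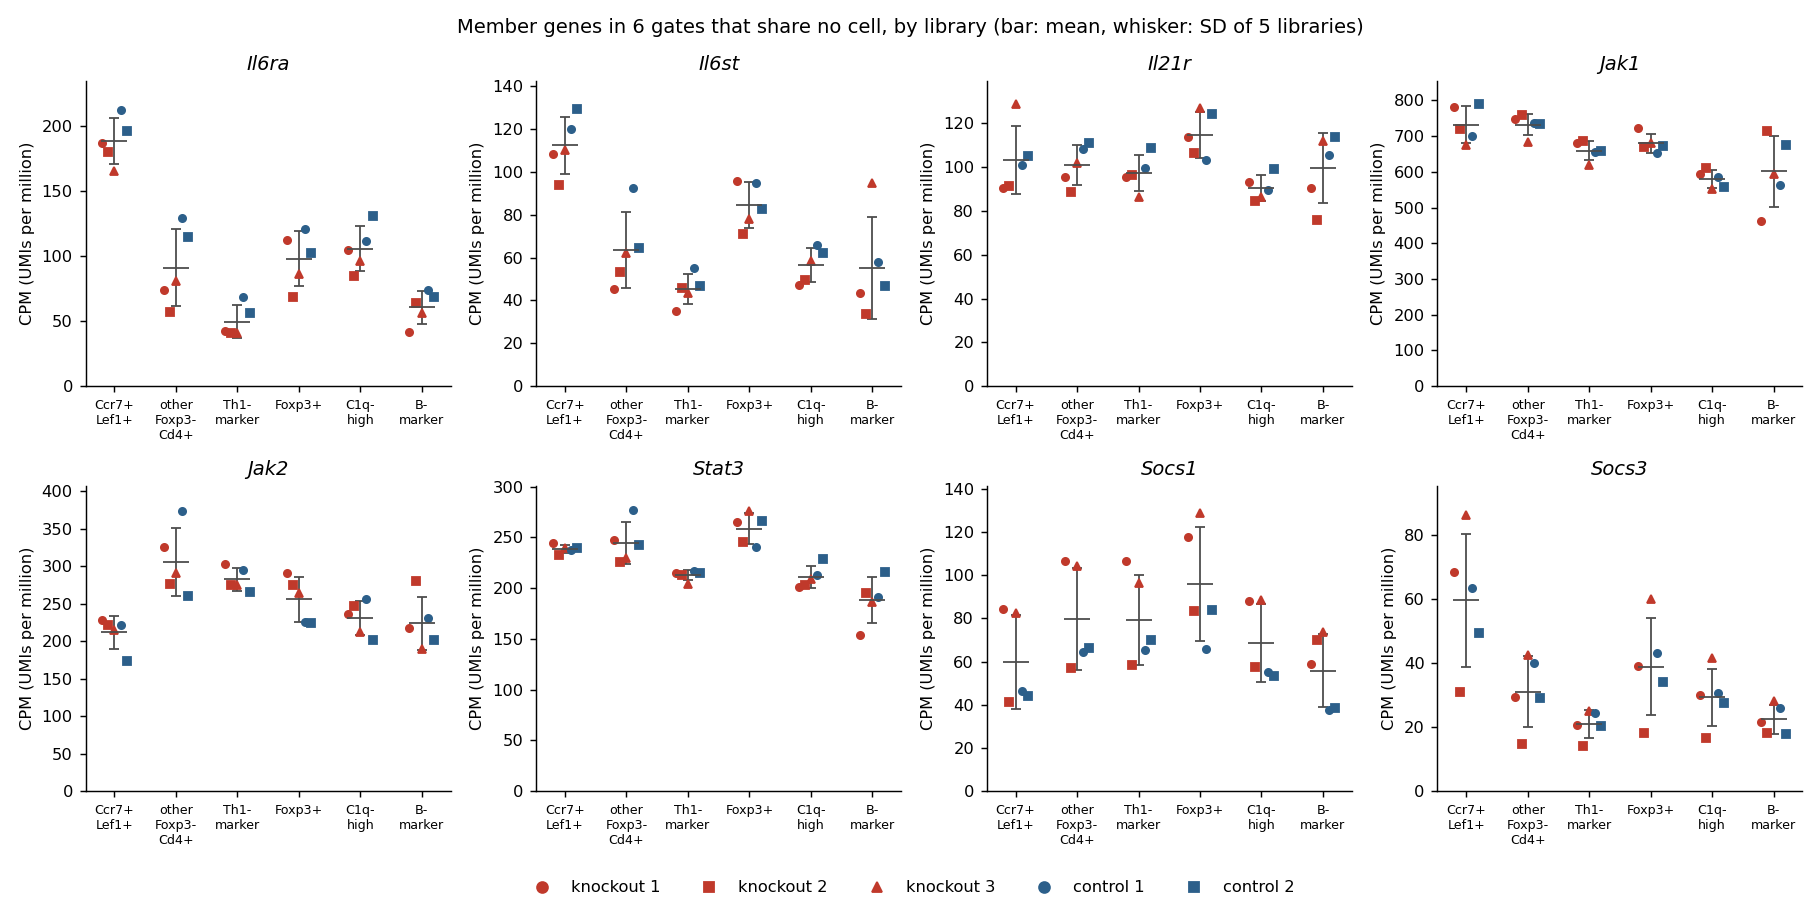
Levels in CPM (vertical axes, from 0) of the 8 genes in 6 gates that share no cell; red points are knockout and blue points control libraries, bars are means and whiskers the SD of 5 libraries. Il6ra, Il6st and Socs3 have their highest means in the Ccr7+ Lef1+ gate (188, 112.3 and 59.5 CPM), where Jak2 has its lowest (212 CPM).

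The knockout was compared with the control in each of the 3 gates, the contrast that the study's design turns on. In the Foxp3+ gate, where Cre acts, none of the 8 members passed, and none of the 11519 genes tested did (0% called; edgeR, Benjamini-Hochberg threshold 0.05). At an unadjusted p under 0.05 there were 752 genes, and DESeq2 called 51. Socs1 had 109, 79.7 and 116 CPM in knockout libraries, against 65.0 and 79.2 CPM in control libraries. All knockout libraries lay above both controls, knockout 2 by less than 1 CPM. Its log2 fold change was 0.46 (SE 0.17; edgeR adjusted p = 0.682), and without the filter on low counts it passed at an adjusted p of 0.00991 in edgeR, where 2.32% of genes passed.

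Jak2 had 288, 275 and 246 CPM in knockout and 229 and 214 CPM in control libraries, again without overlap, a log2 fold change of 0.25 (SE 0.11; edgeR adjusted p = 0.768). With each library left out in turn the log2 fold change ran from 0.31 to 0.61 for Socs1 and from 0.20 to 0.31 for Jak2. Members whose libraries did not overlap were 2 of 8, both on the knockout-high side, where 14.9% of all genes tested lay likewise, and none on the knockout-low side, where 7.27% did. Il6ra had 116, 75.5 and 97.2 CPM in knockout libraries and 119 and 111 CPM in control libraries, which overlapped (log2 fold change -0.30, SE 0.16; -0.15 without knockout 2 and -0.46 without knockout 1). Il6st had 84.2, 65.6 and 74.2 CPM in knockout and 90.1 and 80.6 CPM in control libraries, also overlapping (-0.24, SE 0.12; -0.15 without control 1, -0.16 without knockout 2 and -0.34 without knockout 1). Stat3 itself, at 258, 244 and 252 CPM in knockout and 237 and 255 CPM in control libraries, had a log2 fold change of -0.00 (SE 0.095). Il21r, Jak1 and Socs3 had log2 fold changes of -0.08, -0.01 and -0.14, and Socs3 the widest error of the 8 (SE 0.34), with knockout 2 at 19.5 CPM and knockout 3 at 51.6 CPM on either side of the controls at 42.0 and 31.1 CPM.

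The macrophage list moved beside these values: its 8 genes summed to 896, 1221 and 1648 CPM in knockout and 229 and 1049 CPM in control libraries of the Foxp3+ gate, with no gene at 0. Without C1q-high cells the list summed to 50.8 to 105 CPM in knockout and 53.9 to 84.1 CPM in control libraries. C1qa, C1qb and C1qc are on the list and also set the C1q-high gate, so part of this fall follows from how the gate was set. Without these cells the log2 fold changes were 0.53 for Socs1, 0.26 for Jak2, -0.37 for Il6ra and -0.16 for Il6st, none of which passed.

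In the Foxp3- Cd4+ gate the receptor chains stood apart most. Il6ra had 76.1, 62.3 and 75.8 CPM in knockout libraries, against 111 and 109.7 CPM in control libraries. Il6st had 48.5, 51.5 and 58.8 CPM in knockout libraries, against 74.4 and 69.6 CPM in control libraries. In both genes every knockout library lay below both controls. The log2 fold change of Il6ra was -0.67 (SE 0.11), which is 0.628-fold, and that of Il6st -0.49 (SE 0.11). Neither passed after Benjamini-Hochberg adjustment in edgeR (adjusted p = 0.820 and 0.935), and 0 of 13959 genes did (0% called; 685 at an unadjusted p under 0.05). DESeq2, which called 58 genes (0.416%), called Il6ra (adjusted p = 0.00101) and not Il6st (0.0556). Without the filter on low counts edgeR called both (adjusted p = 0.00180 and 0.0332) among 191 genes (0.843%). With each library left out in turn the log2 fold change ran from -0.72 to -0.58 for Il6ra and from -0.56 to -0.43 for Il6st.

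Il21r (94.1, 91.7 and 94.8 CPM in knockout, 100.2 and 107 CPM in control libraries) and Stat3 (219, 216 and 215 CPM against 226 and 228 CPM) also did not overlap, with small log2 fold changes of -0.19 (SE 0.081) and -0.11 (SE 0.082). That made 4 of 8 members whose knockout libraries all lay below the controls, a position that 6.38% of all genes tested held. None lay above both controls in every knockout library, as 12.4% of genes did. Socs1 had 99.6, 57.0 and 94.6 CPM in knockout libraries, against 59.4 and 61.2 CPM in control libraries. Knockouts 1 and 3 lay well above the controls and knockout 2 just below them, so the groups overlapped (log2 fold change 0.43, SE 0.23). Jak1 (-0.06), Jak2 (0.02) and Socs3 (-0.23, SE 0.34) overlapped as well.

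**Figure D2:**
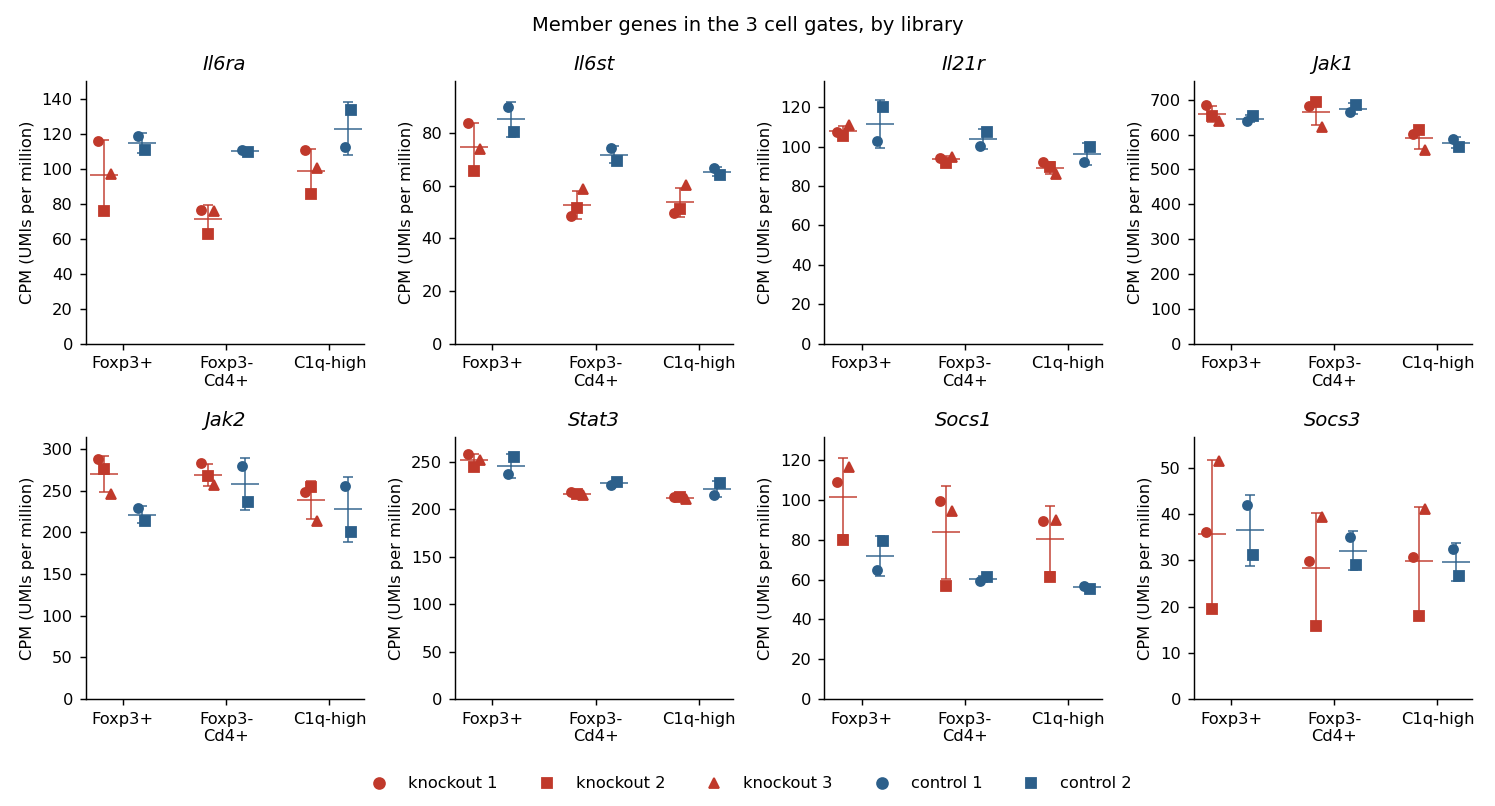
Levels in CPM (vertical axes, from 0) of the 8 genes in the 3 gates, knockout libraries in red to the left of control libraries in blue; bars are group means and whiskers SDs (n = 3 and n = 2). In the Foxp3- Cd4+ gate the knockout points of Il6ra lie between 62.3 and 76.1 CPM, below both controls.

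Naive T cell markers moved with this result. The naive T list (Ccr7, Lef1 and Tcf7) summed to 631, 514 and 639 CPM in knockout and 745 and 1050 CPM in control libraries of the Foxp3- Cd4+ gate, with no gene at 0. Ccr7+ Lef1+ cells were 13.3%, 5.59% and 11.7% of its C1q-low cells in knockout libraries and 22.7% and 19.6% in control libraries. Cells were then thinned to 2000 UMIs and those under 2000 UMIs left out. That removed 7.90%, 15.7% and 15.6% of retained cells in knockout and 3.12% and 20.1% in control libraries. After this the shares of Ccr7+ Lef1+ cells were 4.15%, 2.44% and 6.11% in knockout and 5.56% and 10.5% in control libraries, which overlapped.

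Removal of the C1q-high cells from the gate left the log2 fold changes at -0.75 for Il6ra and -0.48 for Il6st, and the C1q-low cells that remained were then divided. Within the Ccr7+ Lef1+ cells Il6ra had 177, 175 and 165 CPM in knockout and 206 and 195 CPM in control libraries, without overlap, a log2 fold change of -0.27 (SE 0.095). In the C1q-low Foxp3- Cd4+ cells left after Ccr7+ Lef1+ cells were removed it had 48.0, 47.0 and 53.8 CPM in knockout and 76.2 and 77.0 CPM in control libraries, a log2 fold change of -0.64 (SE 0.098), beside the -0.75 of all C1q-low cells. In those same cells the naive T list still summed to 407, 420 and 444 CPM in knockout and 415 and 635 CPM in control libraries, which overlapped. The corresponding log2 fold changes of Il6st were -0.31 (SE 0.11) within Ccr7+ Lef1+ cells and -0.33 (SE 0.15) without them, where it had 37.4, 48.6 and 50.3 CPM in knockout and 60.2 and 52.8 CPM in control libraries. None of these 4 values passed in edgeR. The part of naive cells outside the Ccr7+ Lef1+ gate in these values was not tested.

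**Figure D3:**
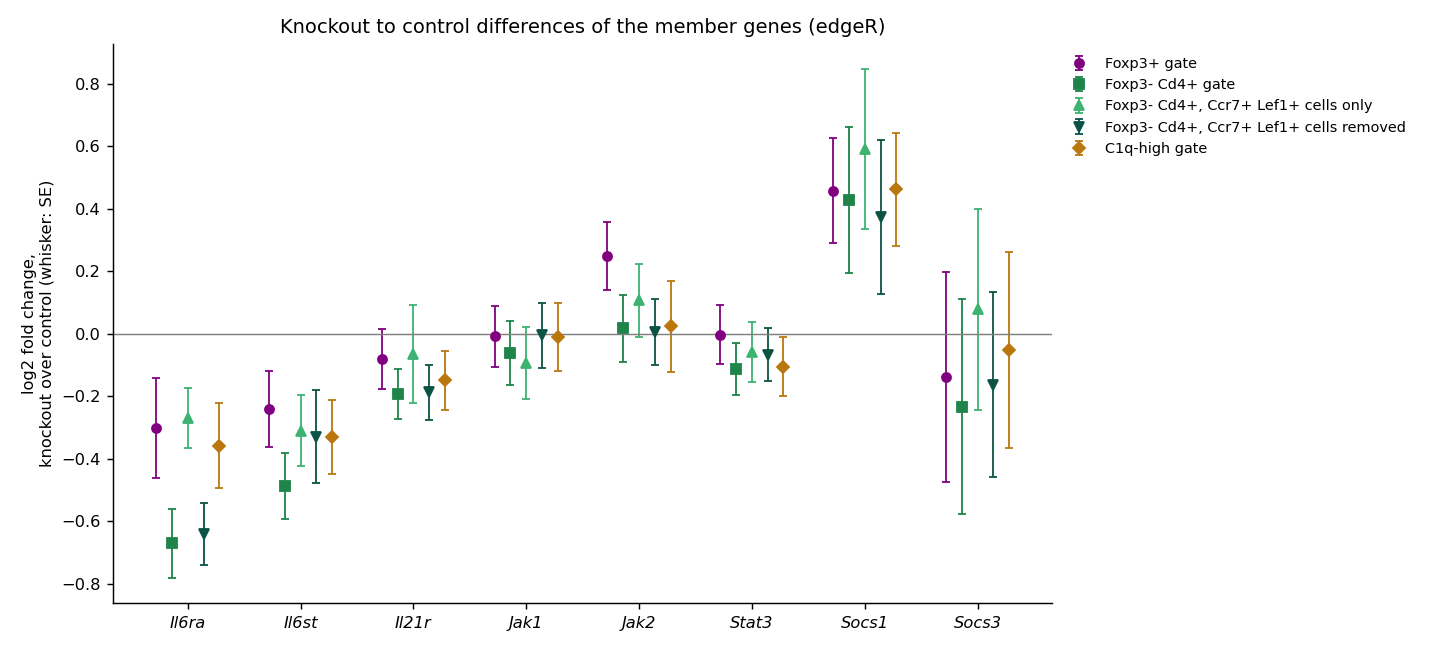
Log2 fold change of knockout over control (vertical axis; whiskers are the SE from edgeR) of the 8 genes in the 3 gates and in the Ccr7+ Lef1+ and remaining cells of the Foxp3- Cd4+ gate, both without C1q-high cells. Il6ra lies at -0.67 in the whole Foxp3- Cd4+ gate, which includes C1q-high cells (-0.75 without them), and, among its C1q-low cells, at -0.27 in Ccr7+ Lef1+ cells and -0.64 in the rest, and Socs1 lies between 0.37 and 0.59 in all 5 cell sets.

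In the C1q-high gate, too, no member passed and 0 of 12005 genes did (0% called; 433 at an unadjusted p under 0.05, and 21 in DESeq2). Il6ra had 110.4, 85.6 and 100.2 CPM in knockout and 112 and 133 CPM in control libraries (log2 fold change -0.36, SE 0.14), and Il6st had 49.9, 51.3 and 60.2 CPM in knockout and 66.7 and 64.3 CPM in control libraries (-0.33, SE 0.12). Socs1 had 89.6, 61.1 and 90.0 CPM in knockout and 57.0 and 55.5 CPM in control libraries (0.46, SE 0.18). Il6ra, Il6st and Stat3 (213, 213 and 211 CPM against 215 and 228 CPM) lay below the controls in every knockout library, as did 4.96% of genes tested, and Socs1 lay above them, as did 12.9%. That made 4 of 8 members without overlap in either direction, where 17.8% of genes lay likewise. Since most cells of this gate are also in the Foxp3- Cd4+ gate, the 2 sets of values are not independent.

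Whether the knockout to control difference itself differed between the Foxp3+ and the Foxp3- Cd4+ gate was tested with the library as a term. The interaction passed for 7 of 13949 genes (0.0502%, with 0.0143% higher and 0.0358% lower) and for none of the 8 members. It was 0.35 for Il6ra (SE 0.099; edgeR adjusted p = 0.420) and 0.22 for Jak2 (SE 0.074; edgeR adjusted p = 0.559) on the log2 scale, that is, the difference was less negative or more positive in Foxp3+ cells. Without the filter on low counts Il6ra passed in edgeR (adjusted p = 0.0124), as did 1.29% of genes. The other 6 members had interactions of 0.05 to 0.24, and that of Socs1, 0.07, had an SE of 0.11.

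Around the members, 5 lists of the pathway and a list of 3 shedding genes were read in the same fits: 13 ligands, 17 receptor chains, 10 kinases and STATs, 19 inhibitors and 24 STAT3 targets. None of their genes passed in any of the 3 knockout comparisons or the interaction. The inhibitor Cish, which STAT5 is known to induce, had the smallest p on the knockout-high side of all 3 gates. In the Foxp3+ gate it had 134, 129 and 137 CPM in knockout and 69.2 and 85.9 CPM in control libraries (log2 fold change 0.76, SE 0.11; edgeR adjusted p = 0.315). In the Foxp3- Cd4+ gate it had 129, 99.3 and 125 CPM in knockout and 57.9 and 70.5 CPM in control libraries (0.83, SE 0.15; edgeR adjusted p = 0.820), and in the C1q-high gate its log2 fold change was also 0.83 (edgeR adjusted p = 0.450). In none of these gates did the groups overlap for Cish. Likewise, every knockout library lay above both controls for 14.9% (Foxp3+), 12.4% (Foxp3- Cd4+) and 12.9% (C1q-high) of all genes tested. The C1q-high gate shares cells with both other gates, so the values of Cish are not independent.

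Next in the Foxp3+ gate came Lifr (1.30), the receptor chain for leukemia inhibitory factor, with 21.5, 27.2 and 25.5 CPM in knockout and 7.51 and 13.1 CPM in control libraries, levels that were 2.32 to 7.71 CPM in knockout and 3.37 to 3.46 CPM in control libraries once C1q-high cells were left out. Stat5a (-0.50) and Bcl6 (-0.47) had the smallest p on the knockout-low side there. In the Foxp3- Cd4+ gate these places were held by Hif1a (0.41) and, beside Il6ra, by the kinase gene Pim2 (-0.71), and in the C1q-high gate by Rora (0.67), Pim2 (-0.63) and Il6st. Over the STAT3 targets tested (22, 24 and 22 of 24) the median log2 fold change was -0.05 in the Foxp3+ gate, 0.06 in the Foxp3- Cd4+ gate and 0.09 in the C1q-high gate, beside -0.00, 0.00 and 0.01 over all genes tested.

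Ccr7+ Lef1+ cells were then compared with the other Foxp3- Cd4+ cells of the same library, C1q-high cells left out, a split chosen after the data were seen. Of 12526 genes 44.7% passed here, 21.5% higher and 23.2% lower, so a pass by itself sets no member apart. The receptor pair rose: Il6ra was 3.19-fold higher (log2 fold change 1.67, SE 0.071; edgeR adjusted p = 2.67e-09) and Il6st 2.30-fold higher (1.20, SE 0.071; edgeR adjusted p = 4.09e-08), both in 5 of 5 libraries. Il6ra had 165 to 206 CPM in Ccr7+ Lef1+ cells and 47.0 to 77.0 CPM in the others, and Il6st had 92.0 to 128 CPM and 37.4 to 60.2 CPM, with no overlap for either.

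Socs3 rose with them, at 65.3, 30.4 and 85.0 CPM in knockout and 61.0 and 48.1 CPM in control libraries of Ccr7+ Lef1+ cells, against 22.6, 14.3 and 30.9 CPM and 26.2 and 23.5 CPM in the other cells. It was higher in 5 of 5 libraries by 2.52-fold (1.33, SE 0.072; edgeR adjusted p = 1.88e-08), and knockout 2 had the lowest level in both cell sets. Socs1 went the opposite way, with 84.7, 41.8 and 83.0 CPM in knockout and 46.1 and 43.7 CPM in control libraries of Ccr7+ Lef1+ cells, against 105, 57.9 and 98.7 CPM and 64.7 and 68.1 CPM in the other cells. It fell by 0.38 on the log2 scale (SE 0.054; edgeR adjusted p = 9.52e-05) and was lower in 5 of 5 libraries, but it did not pass without the library term (-0.36).

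Jak1 rose by 0.16 and Stat3 by 0.17 on the log2 scale (edgeR adjusted p = 0.00398 and 0.00286), and Jak2 fell by 0.35 (edgeR adjusted p = 1.77e-05), each in 5 of 5 libraries. Jak1 did not pass without the library term (0.17), nor Stat3 with cells thinned to 2000 UMIs (0.12). Il21r had a log2 fold change of 0.11 with 2 of 5 libraries higher and did not pass (edgeR adjusted p = 0.213).

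**Figure D4:**
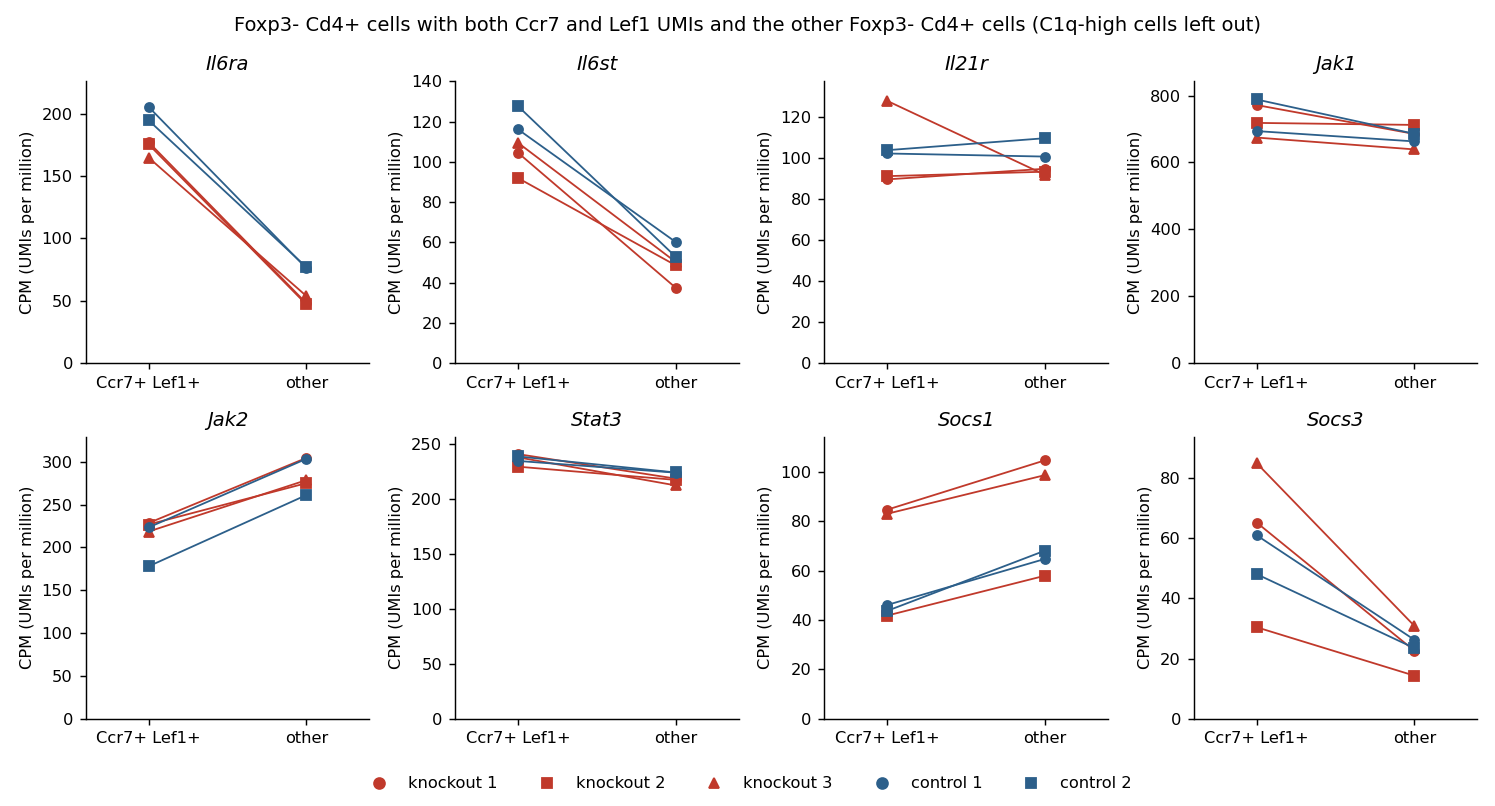
Levels in CPM (vertical axes, from 0) of the 8 genes in Foxp3- Cd4+ cells with both Ccr7 and Lef1 UMIs (left) and in the other Foxp3- Cd4+ cells (right), with a line for each library, knockout red and control blue. Every line of Il6ra, Il6st and Socs3 falls to the right and every line of Socs1 and Jak2 climbs.

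The lists around them split. Among receptor chains 4 of 13 tested rose and 6 fell, with Csf3r (1.40 on the log2 scale), the receptor for granulocyte colony-stimulating factor, and Lifr (0.52) beside Il6ra and Il6st on the higher side, and the interleukin-12 receptor chains Il12rb2 (-1.47) and Il12rb1 (-1.09) at the lower end. Among inhibitors 4 of 19 rose and 7 fell: Socs2 (-1.36) and Cish (-0.92) fell with Socs1, and Socs3 was the highest of those that rose. Of kinases and STATs 3 of 10 rose, Stat5b (0.53) the most, and 5 fell, Tyk2 (-0.43) the most. STAT3 targets were divided, 9 of 21 up and 8 down with a median of -0.07 beside -0.02 over all genes. Fos (1.67), Pim2 (1.22) and Bcl2 (0.84) rose, while Maf (-0.95) and Rora (-0.89), transcription factors of effector T cells, fell. Adam10 (-0.16) fell and Adam17 (-0.12), both proteases known to shed IL-6Rα, did not pass.

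Th1-marker cells, set against the Foxp3- Cd4+ cells without a Cxcr3 UMI, showed the receptor pair at its lower end. C1q-high cells were left out of both sides, but Ccr7+ Lef1+ cells were kept on both. The Th1-marker set therefore held 14123 cells here, against 12661 in the gates that share no cell. The part of Ccr7+ Lef1+ cells in the differences was not tested. Il6ra had 49.9, 46.2 and 50.1 CPM in knockout and 85.5 and 66.2 CPM in control libraries of Th1-marker cells, against 126, 74.3 and 107 CPM and 206 and 156 CPM in cells without Cxcr3. It was lower in 5 of 5 libraries, a log2 fold change of -1.16 (SE 0.087; edgeR adjusted p = 2.42e-05), where 47.0% of 12237 genes passed. Il6st (-0.77), Socs3 (-0.78), Jak1 (-0.21) and Stat3 (-0.17) also fell and Socs1 rose (0.21), each in 5 of 5 libraries, while Il21r (-0.08) and Jak2 (0.05) did not pass. Cxcr3 was seen in deeper cells, with median UMIs of 5291 to 15742 against 3542 to 10183. With cells thinned to 2000 UMIs, Il6ra (-0.79), Il6st (-0.42) and Socs1 (0.24) still passed and Socs3, Jak1 and Stat3 did not. Without control 2 Socs1 (0.19) did not pass.

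Foxp3+ cells were compared with Foxp3- Cd4+ cells of the same library, C1q-high cells left out of both. Of 12503 genes 19.6% passed, 10.9% higher and 8.66% lower, and 4 of 8 members passed, all higher. Il6st had 93.1, 70.3 and 77.8 CPM in knockout and 93.0 and 81.5 CPM in control libraries of Foxp3+ cells, against 48.6, 51.9 and 58.8 CPM and 75.2 and 70.7 CPM in Foxp3- Cd4+ cells. It was higher in 5 of 5 libraries by 0.40 on the log2 scale (SE 0.086; edgeR adjusted p = 0.00792), with the wider gaps in knockout libraries. Socs1 (0.28), Socs3 (0.26) and Stat3 (0.15) rose in 5 of 5 libraries each (edgeR adjusted p = 0.0148, 0.0264 and 0.0373). Il6ra (0.18, 4 of 5 libraries), Il21r (0.15), Jak2 (-0.15) and Jak1 (-0.08) did not pass.

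These steps were small and moved with the composition of the Foxp3- Cd4+ side. Against Foxp3- Cd4+ cells without Ccr7+ Lef1+ cells, where 22.8% of 12405 genes passed, Il6ra was higher in 5 of 5 libraries by 0.63, Il6st by 0.70, Socs3 by 0.60 and Stat3 by 0.17, and Jak2 fell by 0.22. Socs1 was then at 0.21 and did not pass (edgeR adjusted p = 0.0594). Ccr7+ Lef1+ cells were left out of the Foxp3- Cd4+ side alone and kept among Foxp3+ cells, so the sides were not matched. The cells left out were high in Il6ra, Il6st and Socs3, so their removal by itself lowers these genes on that side. Stat3 did not pass without knockout 1, 2 or 3 or without control 2, and Socs3 did not pass without knockout 1 or control 1. Without the library term no member passed. With cells thinned to 2000 UMIs Il6st (0.59), Socs1 (0.44), Il6ra (0.34) and Stat3 (0.31) passed, and Socs3 (0.10) did not. The gates were set anew on the thinned counts, so the cells compared were not the same. The C1q-low Foxp3+ gate then held 375 cells instead of 747 in control 1 and 131 instead of 271 in knockout 1. Cells left without a Foxp3 UMI could enter the Foxp3- Cd4+ side.

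STAT3 targets, a list chosen with earlier results of these data known, were mostly on the Foxp3+ side. Of 23 tested 17 rose and 3 fell, where 10.9% of all genes tested passed higher and 8.66% lower. Their median log2 fold change was 0.53 beside -0.01 over all genes. Il10 (2.01), Ccr6 (1.53), Pim1 (1.43) and Prdm1 (1.08), the gene of Blimp-1, were among those that rose, and Il21 (-2.03), Bcl2 (-0.63) and Pim2 (-0.55) fell. Several of them are also Treg genes, and the list does not separate STAT3 from other inputs. Of the inhibitors Socs5 (0.38) and Cish (0.24) rose with Socs1 and Socs3, and Ptpn11 (-0.60), Ptpn22 (-0.41) and Ptpn6 (-0.23), phosphatase genes, fell. Stat5a (0.55) and Stat5b (0.42) rose beside Stat3.

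C1q-high cells without a Foxp3 UMI, set against the C1q-low Foxp3- Cd4+ cells, were higher in Il6ra alone among the 8. Il6ra had 104, 84.5 and 96.3 CPM in knockout and 112 and 131 CPM in control libraries of C1q-high cells, against 69.6, 57.0 and 69.8 CPM and 111 and 105 CPM. It was higher in 5 of 5 libraries, in control 1 by the least, with a log2 fold change of 0.38 (SE 0.075; edgeR adjusted p = 0.00400). Jak1 (-0.25), Jak2 (-0.23), Il21r (-0.13) and Socs1 (-0.12) fell, and Il6st (-0.11), Stat3 (-0.08) and Socs3 (-0.03) did not pass. Here 37.1% of 12532 genes passed. Il21r did not pass without knockout 2, nor Socs1 without knockout 1, knockout 3 or control 2. With cells thinned to 2000 UMIs Jak1 (-0.40) and Jak2 (-0.41) passed and Il6ra (0.26) did not.

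In the 195 C1q-high cells without Cd3 UMIs the kinases Jak1 and Jak2 stood lower. These cells were shallow, with median UMIs of 1885 to 3612, against 7563 to 18969.5 in C1q-high cells without a Foxp3 UMI. Their sums held 79412 to 225856 UMIs per library, so most levels rest on few UMIs. Jak1 had 268, 339 and 353 CPM in knockout and 262 and 341 CPM in control libraries. Socs1 had 0, 3 and 0 UMIs in knockout and 2 and 1 UMIs in control libraries, too few for a fold change. Against C1q-low Foxp3- Cd4+ cells Jak1 fell by 1.10 on the log2 scale and Jak2, with 7 to 21 UMIs per library, by 1.32. Socs1 also passed, though on those few UMIs, where 24.4% of 11364 genes did. Il6ra, at 27.7, 176 and 227 CPM in knockout and 91.2 and 142 CPM in control libraries, did not pass (edgeR adjusted p = 0.0546). It had 3 to 32 UMIs per library. Among the lists, Lifr (4.09), Csf3r (2.37), Il27 (2.48) and Il10ra (0.89), the interleukin-10 receptor chain, were higher in the preceding comparison. That one set sums of C1q-high cells without a Foxp3 UMI, with or without Cd3 UMIs, against C1q-low Foxp3- Cd4+ cells.

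Foxp3+ cells with an Il1rl1 UMI were set against those without one, over all 5 libraries. Il21r had 99.4, 95.6 and 99.2 CPM in knockout and 91.9 and 104 CPM in control libraries of Il1rl1+ cells, against 136, 111 and 136 CPM and 109 and 131 CPM in Il1rl1- cells. It was lower in 5 of 5 libraries, by 0.34 on the log2 scale (SE 0.071; edgeR adjusted p = 0.0270), and it was 1 of 149 genes called among 9693 (1.54%, with 0.774% lower). The call was lost in DESeq2 (adjusted p = 0.162), with cells thinned to 2000 UMIs, without the library term, and when any 1 of the 5 libraries was left out. The other 7 members did not pass, and their log2 fold changes ran from -0.24 for Il6st to 0.07 for Socs1. Of the lists, Socs2 (-0.48) and Usp18 (-0.75) fell, and Rora (0.44) and Pim1 (0.29) rose.

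The members' patterns over the 30 profiles of the 6 gates in 5 libraries were set against 8525 genes by Pearson correlation of log2(CPM + 1). The profiles share libraries and their depth, so the values are descriptions. Il6ra and Il6st were alike among themselves (r = 0.80), and Il6st and Socs3 had r = 0.76, whereas Il6ra and Socs1 had r = -0.21. Outside the 8, the genes most like Il6ra were Mia2 (0.91), Itga6 (0.91) and Nsg2 (0.90), and those most like Il6st were Pacsin1 (0.87), F2rl1 (0.86) and Ift80 (0.85). Socs1 was most like Cish (0.83), 1500009L16Rik and Fkbp5, and Socs3 most like Washc3 (0.84), Klf6 and Adk. For Il21r these were Tmem64 (0.73), Arl4a and Frmd6, for Jak1 Usp7 (0.85), Tnks2 and Sesn3, for Jak2 Tbl1xr1 (0.91), Ptdss1 and Cd82, and for Stat3 Itpkb (0.90), Camk4 and Zc3hav1.

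In GENCODE M21 (mm10) all 8 members are protein-coding. Il6ra (ENSMUSG00000027947) lies on chromosome 3 at 89864059 to 89913196 on the minus strand and overlaps Gm42809 on the opposite strand. Il6st (ENSMUSG00000021756) lies on chromosome 13 at 112464070 to 112510086 on the plus strand, and Socs1 (ENSMUSG00000038037) on chromosome 16 at 10782240 to 10785536 on the minus strand. Socs3 (ENSMUSG00000053113) lies on chromosome 11 at 117966079 to 117970047 and Stat3 (ENSMUSG00000004040) at 100885098 to 100939540 of the same chromosome, both on the minus strand. Stat3 overlaps Stat5a and Jak1 overlaps Raver2 on the opposite strand, and whether the counting used strand is not given in the sources used here, so reads in these overlaps could have been counted for either gene.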

How the data were processed

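The deposited values are UMI counts, not normalized, of each gene in each barcode of 5 libraries of flow-sorted kidney CD4 T cells (sort panel CD45, CD25, TCRβ, CD4, CD127 and a live/dead dye, per the labels), and, per the file headers, the authors made them with Cell Ranger 8.0.0. Genome build mm10 and Seurat 5.1.0 also stand in the submitters' processing notes. Strand use in counting is not given in the sources used here. All 40778 barcodes were read, the number the series text states, and 38417 cells with at least 500 genes and under 10% mitochondrial UMIs were kept, without a doublet caller.

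UMIs were summed per library and gate and tested with edgeR 4.0.16 (quasi-likelihood, TMM factors, filterByExpr, Benjamini-Hochberg over all genes tested, threshold 0.05) in R 4.3.3, without a replicate block between knockout and control and with the library as a term between gates of the same libraries. Some fits were also run on counts drawn from their own fitted means and dispersions, which does not check the model itself. C1q-high is the gate with at least 5 C1q UMIs, and C1q-low cells are all others. Where counts were thinned, the gates were set anew on the thinned counts, and thinning of cells left out those under 2000 UMIs. Alternatives were DESeq2 1.42.0 (adjusted p left missing where it gave none), RLE factors, all genes without the filter, the replicate block, each library left out, all barcodes, the 5% of cells with most UMIs removed, at least 2 Foxp3 or 20 C1q UMIs, thinning of cells to 2000 UMIs and of libraries to equal depth, and removal of C1q-high cells. The Ccr7+ Lef1+ split, its restriction and removal, and the restriction to C1q-high cells without Cd3 UMIs were chosen after the data were seen; 2 planned splits of the Foxp3- Cd4+ gate and some planned list genes are not reported here. Other tools were Python 3.11.15, numpy 2.4.6, pandas 2.3.3, scipy 1.17.1 and matplotlib 3.10.9. The 8 genes and all lists were chosen with earlier results of these data known, and only the 8 genes, list genes that passed (a selection) or had the smallest p, and the 3 genes most like each member are named. Likeness used genes with a mean of at least 10 CPM. Each count's precision is limited by the gate's UMIs, 3489360 to 18112274 in the Foxp3+ gate, 22569215 to 124179460 in the Foxp3- Cd4+ gate and 6907945 to 14607945 in the C1q-high gate.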

Additional observations from a re-analysis of the deposited data

How the results depend on the processing

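Of 779 values of single members under an alternative, 668 kept their direction and their side of the threshold, 45 no longer passed, 17 newly passed and 49 changed sign; the cause of such changes was not tested. In knockout against control the sign changes were, in the Foxp3+ gate, Jak1 at 0.016 (replicate block), 0.0056 (equal depth), 0.014 (Foxp3 of at least 2) and 0.028 (C1q-high cells removed), and Stat3 at 0.015 (top 5% of cells by UMIs removed), 0.012 (C1q-high cells removed) and 0.082 (Foxp3 of at least 2). In Ccr7+ Lef1+ cells of the Foxp3- Cd4+ gate Socs3 was at 0.078. In the C1q-high gate Jak1 was at 0.014 (top 5% removed), 0.031 (replicate block) and 0.023 (no Cd3 UMI), Jak2 at -0.012 and Socs3 at 0.022 (equal depth), and Il6ra at 0.16 and Stat3 at 0.29 (no Cd3 UMI). In the Il1rl1 split they were Il6ra at 0.019 and Socs3 at 0.018 (DESeq2), Il6ra at 0.029 (no library term), and Il6st at 0.11, Jak2 at 0.093, Socs1 at -0.094 and Stat3 at 0.20 (cells thinned). Thinned cells also gave Il21r 0.019 in Th1-marker cells.

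With libraries left out in turn, signs changed for Il21r (-0.19 to 0.030), Jak1 (-0.035 to 0.013), Socs3 (-0.47 to 0.18) and Stat3 (-0.055 to 0.048) in the knockout comparison of the Foxp3+ gate, Jak2 (-0.089 to 0.14) and Socs3 (-0.54 to 0.067) in that of the Foxp3- Cd4+ gate, and Jak1 (-0.048 to 0.031), Jak2 (-0.15 to 0.23) and Socs3 (-0.35 to 0.23) in that of the C1q-high gate. They also changed for Socs1 in the interaction (-0.046 to 0.17), for Il6ra (-0.10 to 0.076), Jak1 (-0.058 to 0.011) and Socs3 (-0.11 to 0.11) in the Il1rl1 split, and for Socs3 in C1q-high against Foxp3- Cd4+ cells (-0.083 to 0.016).

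Counts of genes called moved as follows. DESeq2 called 51 (Foxp3+), 58 (Foxp3- Cd4+) and 21 (C1q-high) genes between knockout and control, 29 in the interaction and 93 in the Il1rl1 split. Without the filter edgeR called 452, 191, 145, 297 and 511 in the same order. Thinned cells gave 1437 (Foxp3+ against Foxp3- Cd4+), 2491 (Ccr7+ Lef1+), 2442 (Th1-marker), 2712 (C1q-high) and 28 (Il1rl1 split). Without the replicate block, that is without the library term, the counts were 998 (Foxp3+ against Foxp3- Cd4+), 3065 (Ccr7+ Lef1+), 1379 (Th1-marker), 2006 (C1q-high) and 1 (Il1rl1 split). C1q-high cells without Cd3 UMIs gave 2769 against Foxp3- Cd4+ cells and 9 between knockout and control. Leaving out a library gave 1556 to 2700 (Foxp3+ against Foxp3- Cd4+), 42 to 120 (Il1rl1 split), 2 to 39 (interaction), 0 to 33 (knockout, Foxp3+) and 0 to 2 (knockout, C1q-high).

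Members called moved from 4 to 0 without the library term and to 2 to 5 with a library left out (Foxp3+ against Foxp3- Cd4+), from 6 to 3 with thinned cells and to 2 without the library term (Th1-marker), and from 5 to 2, 3 and 2 with thinned cells, without Cd3 UMIs and without the library term (C1q-high). In the Il1rl1 split the 1 member called was lost, leaving 0, with thinned cells, with DESeq2, without the library term and without any 1 library. Without the filter 1 member passed in the interaction, 1 in the knockout comparison of the Foxp3+ gate and 2 in that of the Foxp3- Cd4+ gate, where DESeq2 called 1.

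Knockout and control libraries share the replicate numbers 1 and 2. Deviations of same-numbered libraries from their group means had r = 0.080 and -0.082 in the Foxp3+ gate. They had 0.152 and -0.092 in the Foxp3- Cd4+ gate and -0.016 and -0.203 in the C1q-high gate. With only 2 control libraries their deviations mirror each other, so these values cannot decide whether same-numbered libraries were paired. With the replicate block 0, 1 and 0 genes passed in these gates, Il6ra was at -0.72 and Il6st at -0.57 in the Foxp3- Cd4+ gate, and Socs1 was at 0.35 in the Foxp3+ gate. With 3 and 2 libraries, a difference of the size of Il6ra reached a small unadjusted p without passing over all genes. Socs3 rested on 2 to 4 UMIs per library in C1q-high cells without Cd3 UMIs, too few for a level.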
